A study of Homo sapiens with 14 samples.

Results

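The 43 genes described here are lineage regulators outside the HOX clusters, chosen by name from the 19923 genes of the count tables. Of these, 41 encode transcription factors of the GATA, PAX, NKX, FOX, SOX, T-box, LIM, ZIC, DLX and related families. BMP4 and WNT1 encode secreted ligands. The choice was by gene name and not by a rule on expression values, but earlier results of these data were known when it was made. They were chosen as genes known for Polycomb control, which RNA counts do not measure.

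All 14 RNA libraries came from SK-N-BE2, a MYCN-amplified line established from neuroblastoma. Batch 1 compared wild-type cells on water (H2O) with those on CoCl2 at 10 µM or at 50 µM, and batch 2 held cells labelled wild type and cells labelled TET2 knockout 1, 2 and 3, each group with 2 replicates. Cobalt chloride is widely used to mimic low oxygen, and TET2 is an enzyme that oxidises methylated cytosine in DNA. The treatment time, and whether each knockout number is a clone, a pool or a guide, were not given in the sources used here.

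Polycomb repressive complex 2 methylates lysine 27 of histone H3, and complex 1 recognises that mark and compacts chromatin. In many cell types the 2 complexes sit over CpG-rich promoters of developmental regulators that belong to other lineages and keep them silent. Sympathetic neuroblastoma cells usually carry a lineage programme built on HAND and GATA factors, and many of the genes here are instead known for patterning heart, gut, kidney or brain.

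TET2 was counted in every library, and its mRNA was not lower in the libraries labelled knockout. Its level was 70.8 and 64.8 CPM (counts scaled to a common library total) in the wild-type libraries. It was 80.4 and 76.6 CPM in those labelled knockout 1, 87.4 and 91.1 in knockout 2, and 68.2 and 75.4 in knockout 3. Gene-level counts do not show whether a mutant transcript encodes a working protein, so the labels are used below as given. The libraries of batch 1 held between 31214128 and 39540111 counts and those of batch 2 between 52095024 and 59263320, where reads rather than fragments appear to have been counted. Of 15 adrenergic neuroblastoma markers, 14 reached 1 TPM (counts over exonic length, scaled to a common total of these rates in each library). Pluripotent or germ cell markers summed to at most 0.308 CPM in any library.

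The 250 bases before the start that RefSeq gives for 7 members are shown here because the results below turn on these genes. WT1, DLX1, DLX2, LHX2 and BMP4 were expressed members whose level differed between groups, while PAX3 and OTX2 had no count in any library. Sequences are RefSeq's, from GRCh38.p14, written 5′ to 3′ on the strand of the gene, with each CpG dinucleotide in capitals. This start can differ from the outermost one in the annotation of the count tables: the windows of DLX1, LHX2, BMP4 and OTX2 lie within the gene span given there, that of WT1 lies partly within it, and those of DLX2 and PAX3 lie outside it.

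WT1: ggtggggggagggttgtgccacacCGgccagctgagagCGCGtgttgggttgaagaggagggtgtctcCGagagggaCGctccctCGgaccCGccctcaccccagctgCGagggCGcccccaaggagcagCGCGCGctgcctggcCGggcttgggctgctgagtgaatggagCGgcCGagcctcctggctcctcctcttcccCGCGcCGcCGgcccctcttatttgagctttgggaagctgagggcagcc
DLX1: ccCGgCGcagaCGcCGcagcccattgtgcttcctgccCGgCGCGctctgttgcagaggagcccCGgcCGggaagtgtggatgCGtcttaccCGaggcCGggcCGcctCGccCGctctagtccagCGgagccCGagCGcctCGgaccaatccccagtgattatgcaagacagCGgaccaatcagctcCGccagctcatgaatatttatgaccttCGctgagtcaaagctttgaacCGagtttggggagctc
DLX2: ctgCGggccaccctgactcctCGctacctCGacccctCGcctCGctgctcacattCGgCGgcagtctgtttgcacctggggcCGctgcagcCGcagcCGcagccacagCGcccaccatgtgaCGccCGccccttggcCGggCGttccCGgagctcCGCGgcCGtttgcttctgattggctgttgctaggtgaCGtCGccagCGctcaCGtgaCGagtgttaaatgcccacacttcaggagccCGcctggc
LHX2: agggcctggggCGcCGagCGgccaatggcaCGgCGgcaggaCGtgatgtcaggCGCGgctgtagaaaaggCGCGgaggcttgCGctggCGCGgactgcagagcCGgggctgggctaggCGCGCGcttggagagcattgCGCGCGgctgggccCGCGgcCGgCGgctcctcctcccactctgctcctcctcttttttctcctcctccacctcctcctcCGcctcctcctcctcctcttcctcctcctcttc
BMP4: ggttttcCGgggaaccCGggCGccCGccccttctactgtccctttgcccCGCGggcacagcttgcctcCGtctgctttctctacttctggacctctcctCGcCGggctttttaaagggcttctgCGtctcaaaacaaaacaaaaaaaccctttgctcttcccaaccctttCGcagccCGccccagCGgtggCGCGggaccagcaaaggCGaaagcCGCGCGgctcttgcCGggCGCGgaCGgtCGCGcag
PAX3: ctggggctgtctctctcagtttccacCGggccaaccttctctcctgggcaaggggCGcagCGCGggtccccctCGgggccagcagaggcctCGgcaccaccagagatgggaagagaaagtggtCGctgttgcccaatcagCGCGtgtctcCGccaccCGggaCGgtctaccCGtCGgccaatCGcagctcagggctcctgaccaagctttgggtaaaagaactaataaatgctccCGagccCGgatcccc
OTX2: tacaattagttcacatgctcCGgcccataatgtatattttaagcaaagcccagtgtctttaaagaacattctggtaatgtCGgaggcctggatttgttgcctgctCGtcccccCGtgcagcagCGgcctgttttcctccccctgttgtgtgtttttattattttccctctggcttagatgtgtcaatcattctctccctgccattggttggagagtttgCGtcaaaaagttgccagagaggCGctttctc

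CpG dinucleotides were frequent both in expressed members and in silent PAX3. WT1 (chr11:32435540-32435789, minus strand) held 19, DLX1 (chr2:172085257-172085506, plus) 23, and DLX2 (chr2:172102901-172103150, minus) 25. LHX2 (chr9:124011518-124011767, plus) and BMP4 (chr14:53955051-53955300, minus) held 25 each. Silent PAX3 (chr2:222298999-222299248, minus) held 17, and silent OTX2 (chr14:56810480-56810729, minus) held 7.

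Promoter sequences were matched for 34 of the 43 members. The window lay outside the count tables' gene span for 18 of them, partly within it for 5 and within it for 11. The observed CpG count over that expected from base composition was at least 0.6 in 31 of these 34 members (91.2%), against 64.2% of the 15085 promoters of all genes matched. Of the 10 matched members with no count in any library, 8 (80.0%) reached 0.6, with a median ratio of 0.79. Of all 1597 matched genes with no count, 17.3% reached it, with a median of 0.23. All 4 matched members with counts but under 0.1 TPM reached it, against 386 of the 1332 genes of that class, with medians of 0.89 and 0.33. From 0.1 to under 1 TPM, 8 of 9 members (88.9%) and 38.9% of all genes did. All 11 matched members at 1 TPM or more reached 0.6, as did 80.4% of all genes in that class. Expressed members had a median ratio of 0.89. The letters CACGTG, the E-box recognised by MYC-family factors, were present in 2 of the 34 members (5.88%), DLX2 and ZIC1, and in 7.86% of all promoters of this length. The motif reads the same on both strands and contains a CpG.

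**Figure D1:**
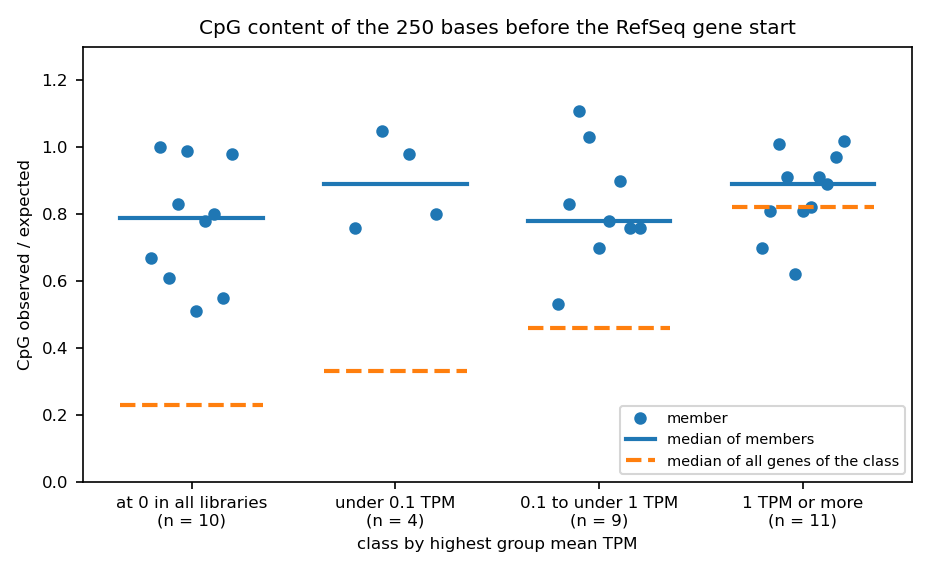
CpG observed over expected (vertical axis) in the 250 bases before the RefSeq gene start, for the 34 matched members grouped by their highest group mean level (horizontal axis). Points are members, solid lines their medians and dashed lines the medians of all genes in the same class; silent members have a median of 0.79 against 0.23 for all silent genes.

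Of the 43 members, 12 (27.9%) had no count in any of the 14 libraries, against 11.9% of all 19923 genes. These were PAX3 (neural crest and muscle), PAX9 (pharyngeal pouches and teeth), NKX2-1 (lung, thyroid and forebrain), NKX2-2 (ventral neural tube) and NKX2-5 (heart). The others were FOXA2 (endoderm and floor plate), TBX5 (heart and forelimb), OTX2 (forebrain and midbrain), CDX2 (intestine), SIM1 (hypothalamus), OLIG3 (dorsal neural tube) and NEUROG1 (sensory neurons). A count of 0 allows up to 3 counts, which is 0.0961 CPM in the shallowest library and 0.00454 CPM over the 660952171 counts of all libraries together, for counting error only. The pooled floor takes each count as a separate event, so it is too low if batch 2 counts are the 2 reads of each fragment.

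A further 7 members stayed under 0.1 TPM in every group mean. They were PAX6, PAX7, FOXA1, SOX17, EN1, EOMES and OLIG2, with between 1 and 57 counts over all libraries. PAX6, a regulator of eye and brain, had counts in 13 libraries but never more than 9. SOX17, an endoderm factor, was seen in a single wild-type library with 4 counts, and EN1, a midbrain and limb factor, in a single H2O library with 1 count. EOMES, a mesendoderm factor, and OLIG2, a motor neuron and oligodendrocyte factor, each had 2 counts in 1 library labelled knockout 2 and none elsewhere. In batch 2, 2 counts can be the 2 reads of a single fragment. None of these 19 genes had more than 9 counts in any treated or labelled knockout library.

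Another 10 members peaked between 0.1 and under 1 TPM. TBXT, the notochord factor brachyury, was the highest of them, with group means of 0.287 to 0.938 TPM. The others were PAX2, LHX9, EN2, SIM2, NEUROG2, BARHL1, ZIC1, ZIC4 and WNT1. WNT1, the midbrain ligand, had no count in either wild-type library of batch 2 and at most 3 in any library.

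The remaining 14 members (32.6%) reached 1 TPM in at least 1 group, against 65.2% of all genes. Of these, 7 did so in all 7 groups, namely GATA4, TBX20, DLX5, NKX6-1, SIX2, IRX3 and FOXC1. GATA4, the zinc finger factor of heart and endoderm, was by far the most abundant, with group means of 62.6 to 84.4 TPM and 59.7% to 67.1% of all counts given to the 43 members. TBX20, a T-box factor of the developing heart, followed at 26.0 to 54.3 TPM and 9.6% to 18.3% of member counts. Thus the 2 leading members are both cardiac regulators, while the cardiac genes NKX2-5 and TBX5 had no count. DLX5, a distal-less homeobox factor, ranged from 7.0 to 18.3 TPM, NKX6-1 (ventral neural tube and pancreatic beta cells) from 2.95 to 10.9, and SIX2 (nephron progenitors) from 1.44 to 6.66. IRX3, a patterning homeobox factor, ranged from 2.08 to 3.95 TPM, and FOXC1, a forkhead factor of mesoderm, from 2.0 to 3.64. The other 7, GATA6, WT1, LHX2, GSC, DLX1, DLX2 and BMP4, crossed 1 TPM in some groups only. GSC, the organizer homeobox gene goosecoid, ranged from 0.859 to 2.07 TPM, and GATA6, the relative of GATA4, from 0.605 to 1.29 TPM. Mitochondrial genes had counts in batch 2 only (13 genes per library) and enter the totals behind TPM there. A crossing of 1 TPM between batches therefore need not be a difference in level. GATA6 was at 1.01 TPM and 0.851 CPM in H2O, but at 0.999 TPM and 0.949 CPM in knockout 1.

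GATA4 and GATA6 thus differed in level by a wide margin in every group. The strand was not used in counting, and only protein-coding exons were counted. Annotated antisense genes share 8.1% and 6.1% of GATA6's exon bases, so reads from those genes there could have been counted for GATA6. The corresponding overlap was 4.0% for LHX2, 1.1% for WT1 and 0.3% for IRX3.

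**Figure D2:**
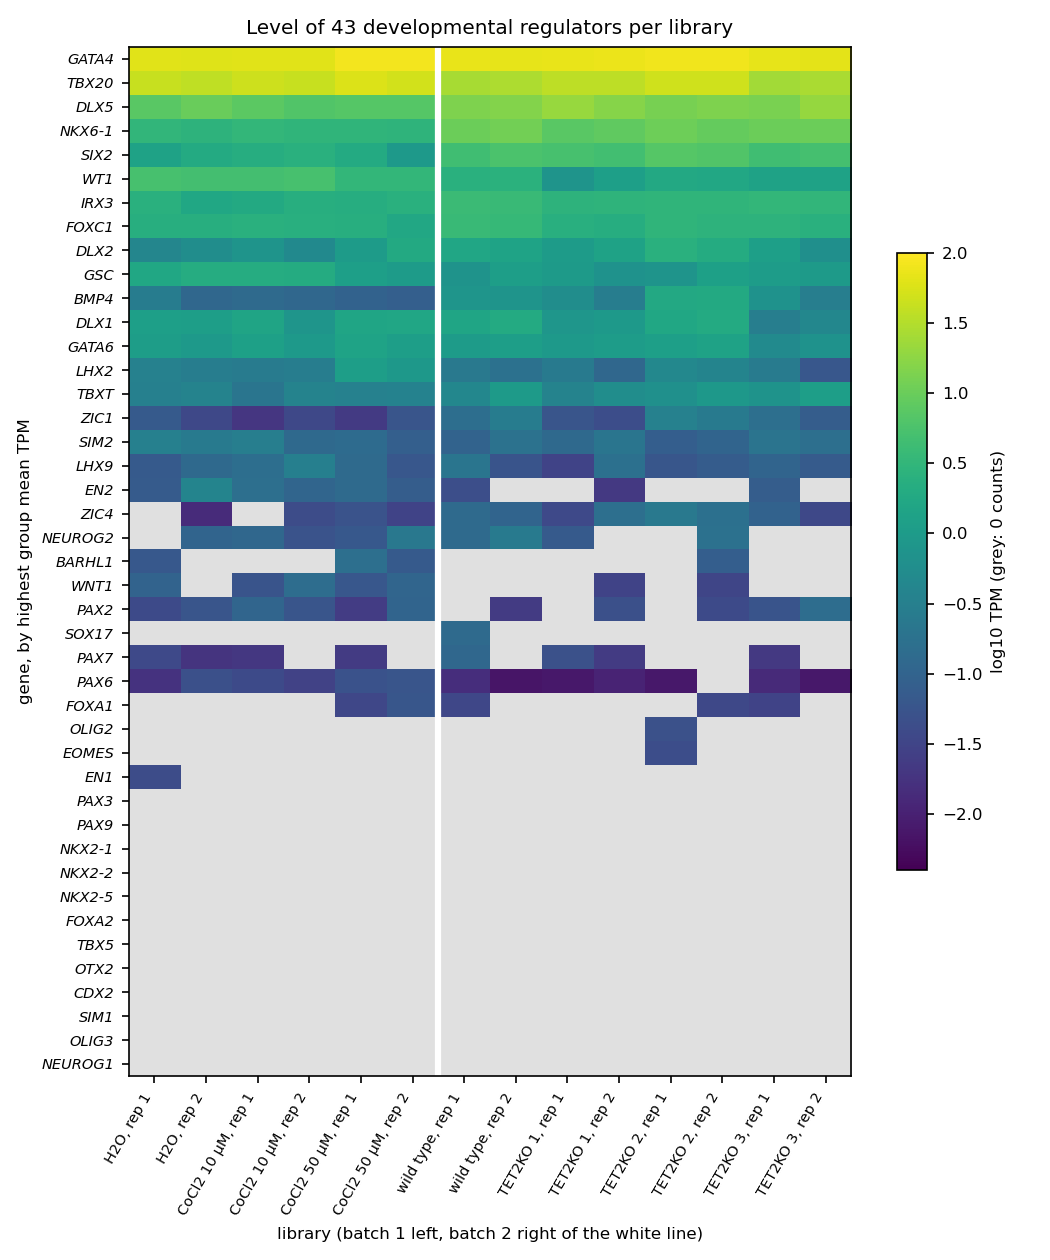
Level of each of the 43 members (rows, ordered by the highest group mean) in each of the 14 libraries (columns), as log10 TPM, with grey for a count of 0. The lowest 12 rows are grey throughout, and GATA4 and TBX20 lead in every library.

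At 50 µM CoCl2 the most abundant members rose modestly, a pair of scarce homeobox genes rose 3.21-fold and 3.07-fold, and WT1 fell. Low-count filtering left 15 members for testing in batch 1. Of these, 6 (40%) were called with edgeR at an adjusted p under 0.05 against H2O, 4 higher and 2 lower, where 61.4% of the 13636 genes tested were called, 30.4% higher and 31.1% lower. The share of members called was thus below that of all genes. The shares were not matched for count, and several members tested were scarce, with 7 and 6 counts for LHX2 in H2O. Fold changes here are on the log2 scale with their standard error (SE), and adjusted p-values run over all genes tested.

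GATA4 stood at 59.7 and 57.1 CPM in H2O, 59.8 and 59.6 at 10 µM, and 79.7 and 79.0 at 50 µM. The 50 µM libraries were above the rest of the batch, with no overlap. The change from H2O at 50 µM was 0.44 (SE 0.03, adjusted p = 6.79e-27). TBX20 stood at 16.3 and 14.4 CPM in H2O, 17.6 and 16.8 at 10 µM, and 22.3 and 19.8 at 50 µM. The 3 groups did not overlap, and the change at 50 µM was 0.45 (SE 0.06, adjusted p = 7.66e-11). GATA6 stood at 0.945 and 0.756 CPM in H2O and 1.18 and 0.979 at 50 µM, and its difference of 0.34 (SE 0.26) did not pass the test (adjusted p = 0.263).

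WT1, the zinc finger factor of kidney and gonad first found through Wilms tumour, was the abundant member that moved down. Its level was 9.12 and 8.22 CPM in H2O, 8.51 and 9.03 at 10 µM, and 5.5 and 5.6 at 50 µM. The 10 µM libraries lay within the range of H2O, and the 50 µM libraries lay below both. The change at 50 µM was -0.64 (SE 0.1, adjusted p = 2.61e-09), a 1.56-fold lower level, and -0.66 against 10 µM (SE 0.1, adjusted p = 1.95e-09).

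LHX2, a LIM homeobox factor of forebrain and eye, had 7 and 6 counts in H2O, 5 and 6 at 10 µM, and 19 and 17 at 50 µM. That is 0.179 and 0.151 CPM in H2O against 0.608 and 0.476 at 50 µM, without overlap. The change was 1.68 (SE 0.46, adjusted p = 0.000821). With DESeq2 the adjusted p was 0.0526, and over the 10 alternatives it ran from 0.000579 to 0.0526. DLX2, a distal-less homeobox factor of forebrain and pharyngeal arches, had 10 and 14 counts in H2O, 17 and 12 at 10 µM, and 20 and 43 at 50 µM. Both 50 µM libraries were above the other 4, and the gap between them was wider than the gap from the lower of them to H2O. The change was 1.62 (SE 0.35, adjusted p = 2.5e-05). It rested on replicate 2 at 50 µM, without which it was 1.06 with an adjusted p of 0.0609, the highest over its 10 alternatives, where the lowest was 4.58e-06. Its neighbour DLX1 stood at 0.894 and 0.882 CPM in H2O and 1.15 and 1.23 at 50 µM, a difference of 0.43 (SE 0.25) that did not pass (adjusted p = 0.138).

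SIM2, a midline factor of the bHLH-PAS family, had 21 and 16 counts in H2O, 17 and 8 at 10 µM, and 7 and 5 at 50 µM. The change of -1.37 at 50 µM (SE 0.48, adjusted p = 0.00914) was lost with DESeq2 (adjusted p = 0.13) and with all 14 libraries in 1 fit (adjusted p = 0.072). It was also lost without H2O replicate 1 (-1.16) or without 50 µM replicate 2 (-1.06). Over the 10 alternatives, adjusted p ran from 0.0085 to 0.137. The other 9 members tested were not called at this dose, and their log2 fold changes ran from -0.72 to 0.43.

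At 10 µM few members moved. Of the 15 tested, 2 were called, both higher, where 22.7% of all genes tested were called, 11.6% higher and 11.1% lower. TBX20 changed by 0.16 (SE 0.06, adjusted p = 0.0497), and this call was lost in 8 of 10 alternatives, with adjusted p from 0.0107 to 0.578 and a change of 0.07 without H2O replicate 2. LHX9, a LIM homeobox factor of the gonad, had 6 and 11 counts in H2O, 12 and 27 at 10 µM, and 9 and 5 at 50 µM. Its 1.28 (SE 0.43, adjusted p = 0.0205) depended on single libraries: without 10 µM replicate 2 it was 0.65 with an adjusted p of 0.55, and without H2O replicate 1 it was 0.92 with 0.252. The LHX9 call was also lost without the low-count filter (adjusted p = 0.0615) and with all 14 libraries in 1 fit (adjusted p = 0.309). Across its 9 alternatives adjusted p ran from 0.00788 to 0.55. DESeq2 gave LHX9 no adjusted p and called 0 members at this dose.

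Between the doses, 7 of 15 members were called, 4 higher and 3 lower at 50 µM, where 52.8% of all genes tested were called, 26.2% higher and 26.5% lower. GATA4, TBX20, LHX2 and DLX2 were higher, by 0.41, 0.29, 1.83 and 1.26, and WT1, LHX9 and SIX2 were lower, by log2 fold changes of -0.66, -1.32 and -0.73. The DLX2 value was 0.7 (adjusted p = 0.236) without 50 µM replicate 2. Without that library LHX9 was at -0.86 (adjusted p = 0.212) and SIX2 at -0.29 (adjusted p = 0.527). Leaving out 10 µM replicate 2 put LHX9 at -0.7 (adjusted p = 0.391) and SIX2 at -0.64 (adjusted p = 0.137). With DESeq2 these 3 calls were lost too, at an adjusted p of 0.0758 for DLX2, 0.177 for LHX9 and 0.231 for SIX2. Over their alternatives adjusted p ran from 0.000135 to 0.236 for DLX2, from 0.0028 to 0.391 for LHX9 and from 0.00392 to 0.527 for SIX2. SIX2 had 25 and 36 counts in H2O, 36 and 45 at 10 µM, and 28 and 16 at 50 µM. The comparisons share libraries, so they are not separate evidence.

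**Figure D3:**
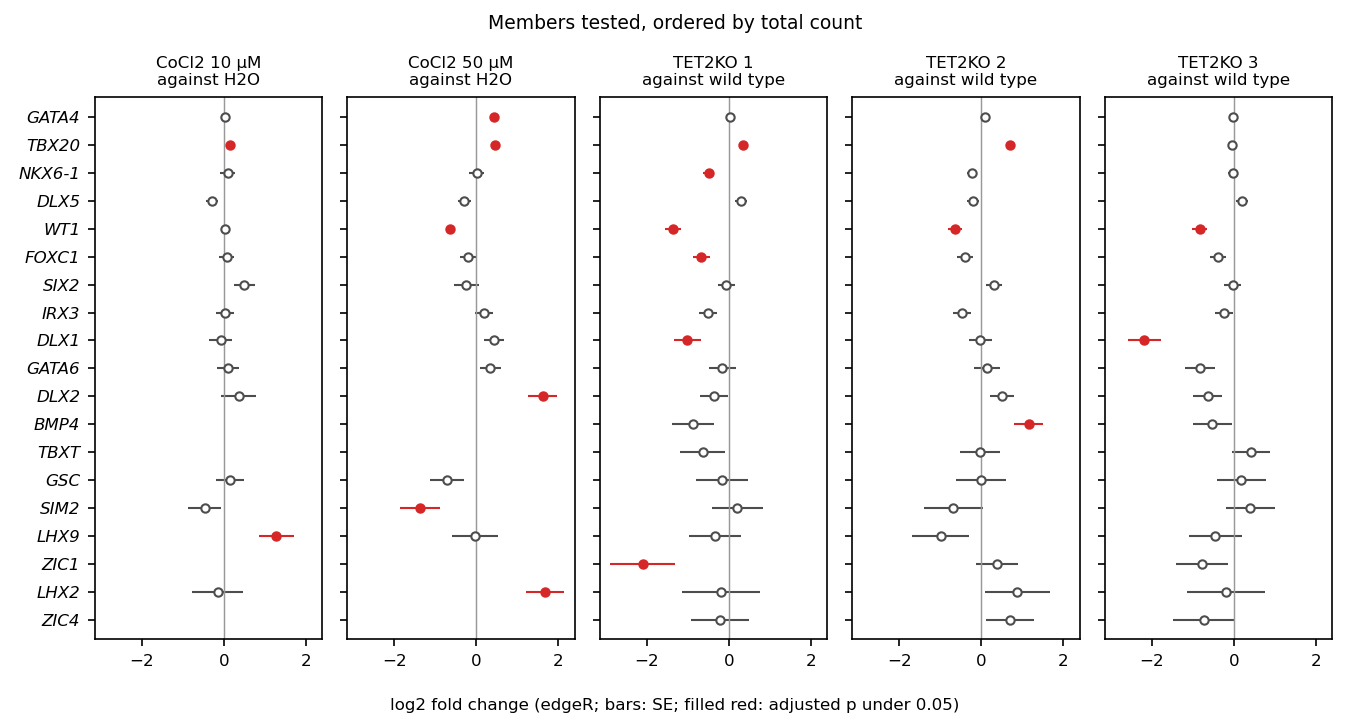
Log2 fold change (horizontal axis, edgeR, bars are SE) of the members tested, ordered by total count, in the comparisons of CoCl2 with H2O and of each labelled knockout with wild type. Filled red points are called; WT1 is left of 0 in the 50 µM panel and in all 3 knockout panels, and LHX2 and DLX2 are right of 0 at 50 µM.

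Against wild type, WT1 fell in each labelled knockout, and the other changes differed from one knockout number to the next. In batch 2, 19 members were tested. Called were 6 of 19 in knockout 1 (1 higher, 5 lower), 3 in knockout 2 (2 higher, 1 lower) and 2 in knockout 3 (both lower). Of all 14061 genes tested, 17.5%, 26.3% and 18.9% were called in the same comparisons. The higher calls were 7.79%, 12.0% and 8.90% of all genes and the lower calls 9.72%, 14.3% and 9.96%. As shares of the members tested these were 31.6%, 15.8% and 10.5%. The median log2 fold change of the members tested was -0.34, 0 and -0.24, with 0 for all genes in each. The 3 comparisons share the same 2 wild-type libraries.

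WT1 stood at 4.87 and 5.08 CPM in wild type, 1.48 and 2.37 in knockout 1, 3.26 and 3.15 in knockout 2, and 2.8 and 2.81 in knockout 3. All 6 labelled knockout libraries were below both wild-type libraries. The log2 fold changes were -1.36 (SE 0.2, adjusted p = 2.33e-09), -0.63 (SE 0.17, adjusted p = 0.00229) and -0.83 (SE 0.18, adjusted p = 0.000114), and each remained called under all 10 alternatives. WT1 was the only member called lower in all 3. The average over the knockout numbers was -0.94 (SE 0.15, adjusted p = 2.04e-08). When all knockout libraries shared 1 coefficient the adjusted p was 0.052, the highest over 15 alternatives, where the lowest was 1.98e-08.

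The summed levels of mesenchymal and of endothelial markers were lower in the labelled knockout libraries. The 13 mesenchymal markers summed to 959 to 975 CPM in wild type and 462 to 577 in the labelled knockouts. In the average by edgeR, 7 of 12 tested were lower and 0 higher (10 at an unadjusted p under 0.05). Of all genes tested, 11.4% were called lower and 7.54% higher in that average. In knockouts 1, 2 and 3 apart, 9, 9 and 8 of the 12 mesenchymal markers were called lower and 1, 1 and 2 higher. The 10 endothelial markers summed to 39.0 to 40.0 CPM in wild type and 17.9 to 22.1 in the knockouts, with 7 of 10 tested lower in the average. At 50 µM they summed to 10.9 to 11.3 CPM against 17.7 to 18.2 in H2O. Mesenchymal markers at 50 µM summed to 373 to 379 CPM against 387 to 402. At 50 µM, 2 of the 10 endothelial markers were at 0. In batch 2 each group had at most 1 of the 13 mesenchymal and 0 of the 10 endothelial markers at 0. The 6 haematopoietic markers summed to 19.0 to 19.1 CPM at 50 µM against 5.65 to 5.8 in H2O. Of the 2 tested there, CD68, a macrophage lysosomal protein, was higher (1.86, SE 0.08, adjusted p = 5.74e-52). The other, CD34, was lower (-1.71, SE 0.5, adjusted p = 0.00179). The haematopoietic markers summed to 11.0 to 12.2 CPM in wild type, 9.58 to 10.0 in knockout 1, 14.6 to 15.9 in knockout 2 and 7.16 to 8.91 in knockout 3. The 6 Schwann or crest markers summed to 19.7 to 21.0 CPM in wild type and 16.2 to 18.5 in the knockouts, with 1 of 4 tested lower in the average (ERBB3, -1.02, SE 0.11). The part of any of these markers in the WT1 and other changes was not tested, and fewer cells of a type and less RNA per cell cannot be told apart.

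DLX1 and DLX2 are neighbouring genes on opposite strands of chromosome 2, 9.8 kb apart, at chr2:172084740-172089677 and chr2:172099438-172102900. Both are interneuron and pharyngeal arch regulators. DLX1 stood at 1.31 and 1.68 CPM in wild type, 0.684 and 0.794 in knockout 1, 1.33 and 1.59 in knockout 2, and 0.273 and 0.39 in knockout 3. Knockout 2 lay within the wild-type range, and knockouts 1 and 3 lay below it. The change was -2.18 in knockout 3 (SE 0.4, adjusted p = 3.44e-06), a 4.54-fold lower level that remained called under all 10 alternatives. In knockout 1 it was -1.01 (SE 0.33, adjusted p = 0.0181), lost with DESeq2 (adjusted p = 0.0711), without wild-type replicate 2 (-0.82, adjusted p = 0.196), without knockout 1 replicate 1 (-0.91, adjusted p = 0.122) or replicate 2 (-1.12, adjusted p = 0.0808). Over its alternatives adjusted p ran from 0.00498 to 0.196. In knockout 2 the difference was -0.03 (SE 0.28, adjusted p = 0.947).

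DLX2 stood at 1.13 and 1.03 CPM in wild type, 0.723 and 0.953 in knockout 1, 1.69 and 1.37 in knockout 2, and 0.888 and 0.468 in knockout 3. Its differences from wild type, -0.36 (SE 0.35), 0.5 (SE 0.3) and -0.64 (SE 0.36), did not pass the test. METAP1D, the gene 2.3 kb from DLX1 on the other side, was not called in any knockout number, at 0.08, 0.1 and -0.07. ITGA6, 324.5 kb from DLX2, was lower in knockout 3 (-0.33, SE 0.05, adjusted p = 1.08e-08).

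TBX20 stood at 11.6 and 12.8 CPM in wild type, 15.6 in both libraries of knockout 1, 19.8 and 20.2 in knockout 2, and 11.3 and 12.6 in knockout 3. Knockout 3 overlapped wild type, and the other labelled knockouts lay above it. The changes were 0.71 in knockout 2 (SE 0.09, adjusted p = 1.44e-11), called under all 10 alternatives, and 0.35 in knockout 1 (SE 0.1, adjusted p = 0.00398). Without wild-type replicate 1 the latter was 0.29 with an adjusted p of 0.0992, the highest over its alternatives, where the lowest was 0.000876. In knockout 3 the difference was -0.04 (SE 0.1, adjusted p = 0.858). GATA4, the other abundant cardiac factor, ranged from 73.0 to 80.3 CPM over all 8 libraries of the batch. Its differences from wild type were 0.04, 0.08 and -0.02 (SE 0.05 each), and none passed.

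BMP4, a secreted ligand of the TGF-beta superfamily, stood at 0.582 and 0.571 CPM in wild type, 0.418 and 0.212 in knockout 1, 1.26 and 1.3 in knockout 2, and 0.547 and 0.234 in knockout 3. Only the knockout 2 libraries lay above wild type, with 70 and 72 counts against 32 and 32. The change was 1.15 (SE 0.36, adjusted p = 0.00967). It missed the threshold with DESeq2 (adjusted p = 0.099) and without wild-type replicate 1 (0.0576), wild-type replicate 2 (0.0694) or knockout 2 replicate 2 (0.0594), while the size stayed between 1.12 and 1.17 under all 10 alternatives, with the lowest adjusted p at 0.00204. Knockout 2 also stood apart in the sum of the adrenergic markers, at 7476 to 7590 CPM there and 9442 to 9654 in wild type. That sum includes MYCN, at 2826 ± 15.3 CPM (SD, n = 2) against 4639 ± 55.6. Of the 14 adrenergic markers tested, 5 were called higher and 5 lower in knockout 2, with a median of -0.03. Of all genes tested, 12.0% were called higher and 14.3% lower there. Their part in the BMP4 and TBX20 values was not tested.

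NKX6-1 and FOXC1 were lower in knockout 1. NKX6-1 stood at 7.68 and 8.51 CPM in wild type, 5.44 and 6.07 in knockout 1, 7.44 and 6.33 in knockout 2, and 7.88 and 8.03 in knockout 3. The change in knockout 1 was -0.49 (SE 0.13, adjusted p = 0.00383). It was -0.41 both without wild-type replicate 2 (adjusted p = 0.0842) and without knockout 1 replicate 1 (adjusted p = 0.0743), and adjusted p ran from 0.000839 to 0.0842 over its alternatives.

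FOXC1 stood at 3.6 and 3.39 CPM in wild type, 2.28 and 2.12 in knockout 1, 2.74 and 2.55 in knockout 2, and 2.84 and 2.46 in knockout 3. All 6 labelled knockout libraries were below both wild-type libraries. The change in knockout 1 was -0.67 (SE 0.21, adjusted p = 0.0116), lost without wild-type replicate 1 (-0.62, adjusted p = 0.0893) or knockout 1 replicate 2 (-0.61, adjusted p = 0.122), and adjusted p ran from 0.00198 to 0.122. In knockouts 2 and 3 the differences were -0.4 (SE 0.2, adjusted p = 0.123) and -0.39 (SE 0.2, adjusted p = 0.155). The average over knockout numbers was -0.49 (SE 0.16, adjusted p = 0.0182). This average was lost with DESeq2 (adjusted p = 0.0619) and when all knockout libraries shared 1 coefficient (adjusted p = 0.172). It was also lost without wild-type replicate 1 (-0.44) or replicate 2 (-0.53). Over its alternatives adjusted p ran from 0.0034 to 0.181.

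ZIC1, a zinc finger factor of the neural plate and cerebellum, had 14 and 26 counts in wild type, 5 and 4 in knockout 1, 30 and 22 in knockout 2, and 16 and 7 in knockout 3. The change in knockout 1 was -2.1 (SE 0.79, adjusted p = 0.0491) and was lost in 6 of 10 alternatives, among them leaving out wild-type replicate 2 (-1.6, adjusted p = 0.361), knockout 1 replicate 1 (-2.31, adjusted p = 0.141) or knockout 1 replicate 2 (-1.9, adjusted p = 0.261). Its lowest adjusted p over the alternatives was 0.0107. ZIC4 overlaps ZIC1 on the opposite strand, with 176 exon bases shared (2.6% of ZIC1's), so unstranded counts do not separate the pair there. ZIC4 had 15 and 12 counts in wild type, 4 and 19 in knockout 1, 26 and 18 in knockout 2, and 12 and 4 in knockout 3, and it was not called.

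In the average of the 3 knockout numbers, 4 of 19 members were called, 1 higher and 3 lower, where 18.9% of all genes tested were called, 7.54% higher and 11.4% lower. These were TBX20 (0.34, SE 0.08, adjusted p = 0.00044), FOXC1, WT1 and DLX1 (-1.08, SE 0.27, adjusted p = 0.00101). TBX20 was at 0.27 without wild-type replicate 1 (adjusted p = 0.0721) and DLX1 at -0.89 without wild-type replicate 2 (adjusted p = 0.0937). The ranges over 15 alternatives were 0.000119 to 0.522 for TBX20 and 0.000256 to 0.507 for DLX1. Both highest values came when all knockout libraries shared 1 coefficient. A direct F-test of the difference among the 3 labelled knockouts called 8 of 19 members, where 37.6% of all genes tested were called. They were NKX6-1, TBX20, WT1, DLX1, DLX2, DLX5, ZIC1 and BMP4, so even WT1, lower in all 3, differed in size among them.

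**Figure D4:**
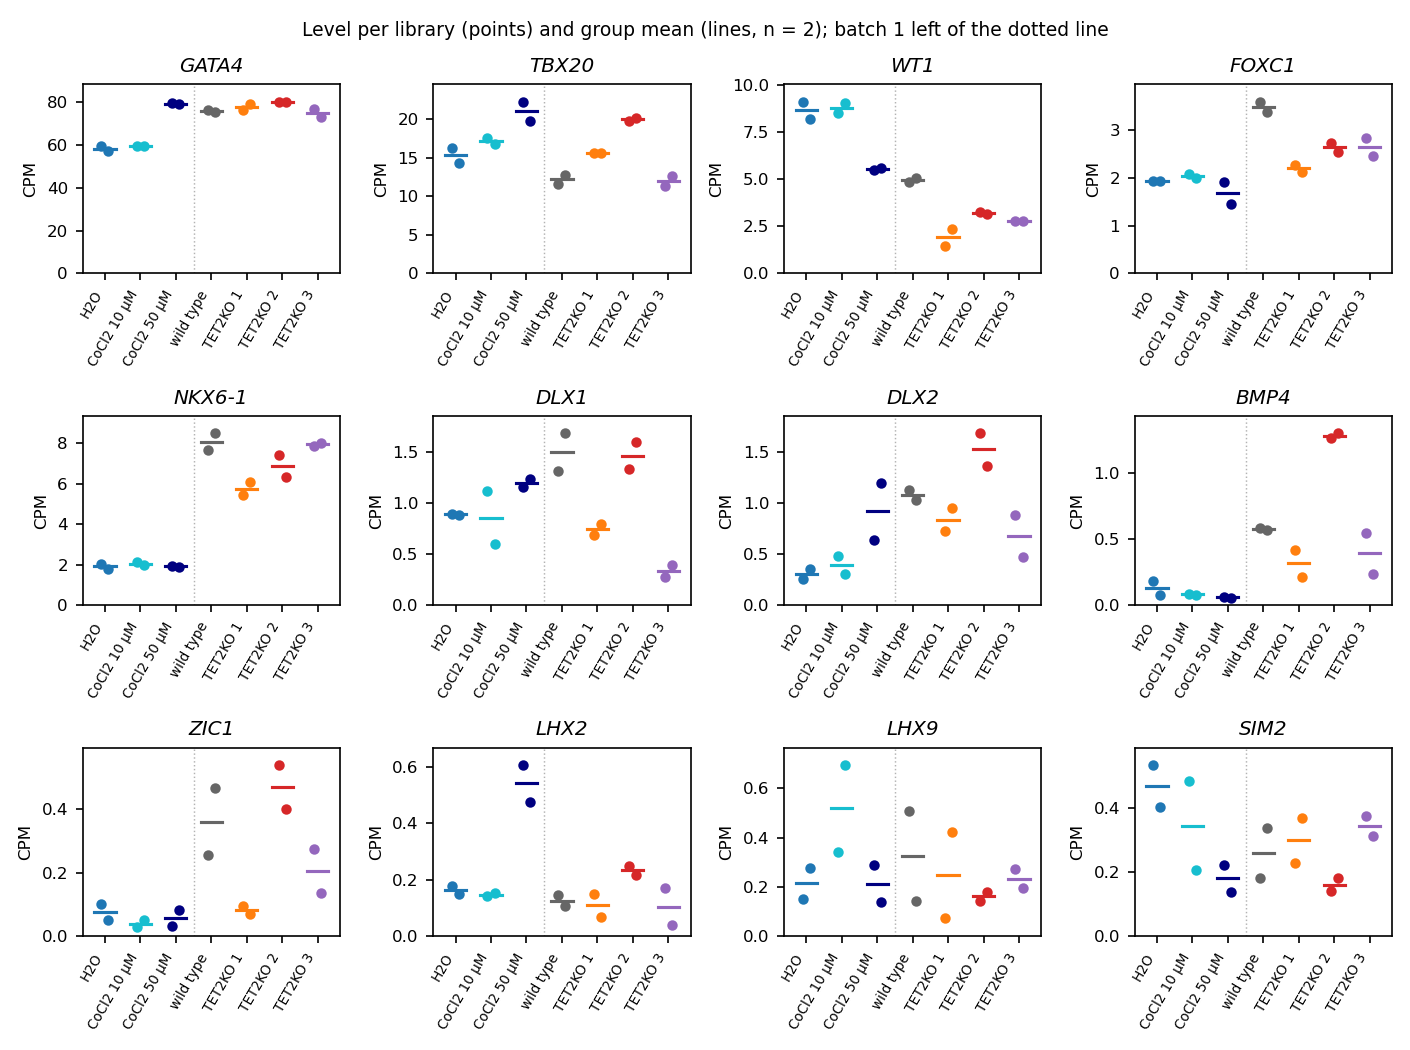
CPM (vertical axis, starting at 0) of 12 members called in at least 1 comparison, by group (horizontal axis), with a point per library and a line at the mean of 2. The WT1 points of the labelled knockouts, 1.48 to 3.26 CPM, all lie below wild type, and BMP4 stands highest in knockout 2.

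Genes next to the members with the largest changes gave mixed readings. RCN1, which encodes a calcium-binding protein of the endoplasmic reticulum and lies 282.0 kb from WT1 (chr11:32387775-32435564), was lower at 50 µM (-0.55, SE 0.05, adjusted p = 1.54e-20). It was lower in knockouts 1 and 2 as well (-0.87 and -0.48), while in knockout 3 it was at -0.21 (SE 0.11, adjusted p = 0.186). EIF3M, a translation factor gene 148.2 kb on the other side, was lower by far less, at -0.05, -0.25 and -0.17 in the same 3 comparisons. LHX2's neighbours did not rise at 50 µM, with DENND1A at 0 (SE 0.04) and NEK6 lower at -0.33 (SE 0.09). Beside DLX2, which was higher at 50 µM, the integrin gene ITGA6 was higher too (0.44, SE 0.03, adjusted p = 6.64e-26), and beside DLX1, METAP1D was lower (-0.24, SE 0.06, adjusted p = 0.000502). BMP4's neighbours DDHD1 and CDKN3, 796.4 and 438.1 kb away, were not called in knockout 2. Beside LHX9, NEK7 was at -0.09 at 10 µM (SE 0.04, adjusted p = 0.0531), and beside SIM2, HLCS was at -0.02 at 50 µM (SE 0.06). AGTR1, 1187.5 kb from ZIC1, was at -0.46 in knockout 1 (SE 0.36, adjusted p = 0.433).

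Of 74 genes from the members' families that are not members, 26 (35.1%) reached 1 TPM and 21 had no count in any library. At 50 µM, 19 of the 29 tested were called, where 61.4% of all genes tested were, 8 higher and 11 lower, with a median of -0.1 against 0 for all genes. The T-box genes TBX3 (0.55) and TBX2 (0.92) and the sympathetic factor GATA3 (0.31) had the smallest adjusted p-values. In the average of the labelled knockouts 13 of 31 were called, where 18.9% of all genes were, 7 higher and 6 lower, with a median of -0.02. TBX2 (0.51, SE 0.04) and TBX3 (0.32, SE 0.03) were higher there and SOX9 (-0.48, SE 0.05) lower.

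The Polycomb machinery itself was expressed. All 31 genes of the list reached 1 TPM in at least 1 group. EPOP, a complex 2 accessory gene, had 1137 to 1507 counts in the batch 1 libraries and at most 1 in those of batch 2. For the list as a whole, the summed level was 1935 to 2037 CPM in batch 1 and 2158 to 2284 CPM in batch 2. At 50 µM, 13 of 31 were called, against 61.4% of all genes tested, 11 higher and 2 lower, with a median of 0.05 against 0. JARID2 (0.32, SE 0.03), an accessory subunit of complex 2, and EZH1 (0.41, SE 0.04), a catalytic subunit, had the smallest adjusted p-values. In the average of the labelled knockouts, 7 of 30 were called, against 18.9% of all genes tested, 6 higher and 1 lower, with a median of 0.05. PHF19 (0.2, SE 0.04) and CBX2 (0.17, SE 0.03) were among them, as was PCGF5 (0.36, SE 0.08).

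All 16 genes for opposing enzymes (histone H3 lysine 4 and 36 methyltransferases, lysine 27 demethylases, and DNA methylation enzymes) also reached 1 TPM. At 50 µM 14 of 16 were called, against 61.4% of all genes tested, 8 higher and 6 lower, with a median of 0.08. NSD1, a lysine 36 methyltransferase, was at -0.38 (SE 0.02), and DNMT3A, a DNA methyltransferase, at -0.21 (SE 0.02). In the average of the labelled knockouts 5 of 16 were called, against 18.9% of all genes tested, 1 higher (TET2, 0.23, SE 0.04) and 4 lower, with a median of -0.06.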

How the data were processed

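Polyadenylated RNA was measured in 14 libraries in 7 groups of 2. The authors deposited raw counts per gene. Per the file headers they were made with featureCounts (1.5.3 in batch 1, 2.0.5 in batch 2), paired, without a strand option, over protein-coding exons of GENCODE release 33 on GRCh38. Per the submitters' processing notes, Trimmomatic 0.36 and STAR 2.6.1d were also used. Between 39.0% and 42.3% of counts from 1 to 10 were even in batch 1 and 77.3% to 80.5% in batch 2, so batch 2 counts appear to be reads. Whether replicates were separate cultures is not stated, so p-values measure only the spread between these libraries.

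Each batch was fitted alone in R 4.3.3 with edgeR 4.0.16 (filterByExpr, TMM, robust quasi-likelihood F-test, dispersion floor 0.0001001), 1 coefficient per group and Benjamini-Hochberg adjustment over 13636 or 14061 genes. Calls are at an adjusted p under 0.05. The script was tested on simulated data. CPM uses TMM-scaled totals, TPM the exonic length of the files, and SD is over 2 libraries. Levels of H2O and wild type are not tested against each other, since batch and culture cannot be told apart. Intervals and floors (3 counts) cover counting error only.

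The members, lists and tests were chosen with earlier results of these data known. Values in every library are given for members called or at 1 TPM or more where a result turns on them, with the nearest genes for calls of at least 2-fold, pairs within 500 kb, and up to 3 genes per list by smallest adjusted p. Alternatives were DESeq2 1.42.0 and its size factors, no filter, no dispersion floor, halved batch 2 counts, a replicate block, all libraries in 1 fit, 1 coefficient for all knockouts, and leaving out each library.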

Additional observations from a re-analysis of the deposited data

Results flagged for a closer look

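For 8 members the effect of the knockout label differed among knockout numbers 1, 2 and 3, by an edgeR F-test of the difference itself with adjustment over 14061 genes. That is 42.1% of the 19 members tested, near the 37.6% of all genes tested that were called in the same test. The gap between the largest and the smallest log2 fold change from wild type was 2.47 for ZIC1 (adjusted p = 0.0121), 2.15 for DLX1 (9.83e-06), 2.03 for BMP4 (8.66e-06) and 1.14 for DLX2 (0.0054). It was 0.75 for TBX20 (8.92e-12), 0.72 for WT1 (0.0131), 0.5 for DLX5 (0.00614) and 0.46 for NKX6-1 (0.0118). DLX1 was lowest in knockout 3, ZIC1, BMP4, NKX6-1 and WT1 in knockout 1, and BMP4, TBX20 and DLX2 were highest in knockout 2. DLX5 was not called against wild type in any knockout number: it stood at 5.87 and 6.44 CPM in wild type, 8.61 and 6.58 in knockout 1, 4.99 and 5.68 in knockout 2, and 5.65 and 8.68 in knockout 3. The WT1 difference was lost without knockout 1 replicate 1 (0.43, adjusted p = 0.351), which had 78 counts against 134 in the other library, and without knockout 2 replicate 1 (0.7, adjusted p = 0.0561). Leaving out knockout 2 replicate 1 also ended the calls of DLX2 (0.99, adjusted p = 0.148), DLX5 (0.41, adjusted p = 0.166) and ZIC1 (2.24, adjusted p = 0.145). Without knockout 1 replicate 1 the gap was 0.39 for NKX6-1 (adjusted p = 0.106) and 0.41 for DLX5 (adjusted p = 0.0523). It was 2.27 for ZIC1 without knockout 1 replicate 2 (adjusted p = 0.0786) and 0.45 for NKX6-1 without knockout 3 replicate 2 (adjusted p = 0.0505). The gaps of DLX1, BMP4 and TBX20 passed the test under all 12 alternatives. The labels do not say how the knockout numbers differ.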

How the results depend on the processing

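Of 38 calls of single members, 15 were kept under every alternative, 23 were lost under at least 1, 11 were lost with the DESeq2 test, and 0 changed direction. LHX9 at 10 µM is not among those 11, because DESeq2 gave it no adjusted p, but DESeq2 did not call it either. At 10 µM against H2O the 2 members called became 1 with DESeq2 size factors, 1 without a dispersion floor, 0 without a filter (2 at an unadjusted p under 0.05), 0 with all 14 libraries in 1 edgeR fit (0 unadjusted), 0 with the DESeq2 test (0 unadjusted), and 0 to 2 when a library was left out. At 50 µM against 10 µM the 7 became 4 with DESeq2, and 4 to 8 with a library left out. In knockout 1 the 6 became 3 to 4 with a library left out, and in knockout 2 the 3 became 5 with all 14 libraries in 1 fit. In the average of knockouts the 4 became 0 with 1 shared coefficient (3 unadjusted) and 2 to 4 with a library left out. In the difference among knockouts the 8 became 4 to 8. Other ranges with a library left out were 4 to 6 for 50 µM against H2O, 2 to 3 for knockout 2 and 2 to 3 for knockout 3. Over all genes, the calls at 10 µM were 3098, against 1066 with DESeq2 and 796 with all libraries in 1 fit. Between the doses they were 7198, against 4758 and 4677, and in the average of knockouts 2656, against 256 with 1 shared coefficient. The causes were not tested. For silent members nothing under the floor of 3 counts is detectable.

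Replicate numbers in the labels did not pair the libraries: same-numbered libraries of different groups had correlations of deviations of -0.06 to 0.02 in batch 1 and -0.16 to 0.12 in batch 2. With the replicate block the members called were 2 at 10 µM, 6 at 50 µM, 7 between the doses, 5, 3 and 2 in knockouts 1, 2 and 3, 4 in their average and 8 among them. The call lost was ZIC1 in knockout 1 (-2.1, adjusted p = 0.0568).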

Other observations

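The wild-type control of batch 2 and the H2O control of batch 1 carry the same cell line name but differed in several members, side by side and untested, since batch, counting and culture cannot be told apart. NKX6-1 stood at 2.96 ± 0.277 TPM in H2O and 10.9 ± 0.675 in wild type (SD, n = 2 each), SIX2 at 1.67 ± 0.41 and 5.04 ± 0.787, and BMP4 at 0.196 ± 0.112 and 0.772 ± 0.0189. WT1 ran the other way, at 5.07 ± 0.373 TPM in H2O and 2.54 ± 0.0483 in wild type, as did TBX20, at 40.0 ± 3.51 and 27.7 ± 1.58. GATA4 was at 62.6 ± 1.98 and 70.9 ± 1.25 TPM. The sizes of these gaps depend on the scale, and mitochondrial genes had counts in batch 2 only. In CPM, TBX20 was at 15.3 in H2O and 12.2 in wild type, and GATA4 at 58.4 and 75.9.

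PAX9 and NKX2-1, 136.4 kb apart on chromosome 14, were both at 0 in all 14 libraries. Within families the level was split between relatives. Among T-box genes TBX3 was at 112 TPM in H2O and 189 in wild type, TBX2 at 23.2 and 39.0, and TBX18 at 8.18 and 6.92, while TBX5 was at 0. Among GATA genes GATA2 was at 265 and 571 TPM and GATA3 at 328 and 225. DLX6, which lies beside DLX5, was at 22.4 and 22.0 TPM. PAX5, a regulator of B cells and midbrain, was at 36.4 and 49.4 TPM, while PAX3, PAX9, PAX6, PAX7 and PAX2 were under 0.11 TPM in every group.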
